A study of Mus musculus with 4 samples.

Results

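The heart of a mouse labelled as a WW45 knockout (cKO) was compared with the heart of a control mouse (CT) after both had been under transverse aortic constriction (TAC) for 4 weeks. TAC narrows the aortic arch surgically, so that the left ventricle pumps against a raised pressure. The comparison took the log2 value of every gene in the cKO TAC library minus its value in the CT TAC library, and it covered 12408 genes in 2 of the 4 libraries of the series. The control was WW45 flox/flox and the knockout was WW45 flox/flox-alpha-MHC-CRE, in which the alpha-MHC promoter drives Cre recombinase in cardiomyocytes. All mice were C57BL/6, 3 months old, and carried the floxed WW45 alleles. The other 2 libraries, CT baseline and cKO baseline, came from hearts of the same 2 genotypes at baseline and are given beside the TAC pair. No group carried Cre without the floxed allele and none is labelled as a sham operation, so an effect of Cre itself or of the operation cannot be told apart from the comparisons made here. The labels give no sex, and it was not checked here. Each library was 1 mouse, so the spread between mice of a group was not measured, there is no replicate check of any difference, and the TAC pair by itself allows no test of genotype. A model over all 4 libraries was not fitted.

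WW45, the product of Sav1, is the scaffold protein of the Hippo kinase cascade. It brings the kinases MST1 and MST2 together with LATS1 and LATS2, which phosphorylate the co-activators YAP and TAZ and hold them out of the nucleus. When the cascade is off, YAP and TAZ bind TEAD transcription factors on DNA and switch on genes for growth, matrix and the cytoskeleton. In the adult heart the pathway is known for restraining growth and cell division of cardiomyocytes, and a pressure-loaded ventricle is known for returning to fetal genes such as the natriuretic peptides and skeletal alpha-actin.

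The deposited values were log2 CPM (reads scaled to a common library size), from which the reads were recovered. The CT TAC library held 2064655 recovered reads and the cKO TAC library 1772153, and the baseline libraries held 2796547 (CT) and 1587840 (cKO). One read was worth 0.499 CPM in CT TAC and 0.544 CPM in cKO TAC, and the median gene had 36.5 and 34 reads. The shallow depth set how small a difference could be seen. A gene was counted as apart when its log2 ratio was at least 1 in size (2-fold) and the exact 95% Clopper-Pearson interval of its ratio excluded 1. Such intervals hold counting error alone, and reads copied by PCR do not count separate molecules.

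Between the TAC libraries 623 of 12408 genes (5.02%) were apart by this rule. Of these, 364 (2.93% of all genes) lay higher in the library labelled cKO TAC and 259 (2.09%) lay lower. The counts in the gene lists below are to be read beside these shares. The lists were chosen with earlier results of these data known, so a count above these shares is a description only. Scaled to total reads instead, 666 genes were apart and 72.1% of them lay higher, against 58.4% with the deposited scaling. The median log2 ratio over all genes was 0.01, with quartiles at -0.33 and 0.37, and 50.5% of genes lay above 0. A further 824 genes were 2-fold apart with an interval that held 1. Among the 2934 genes with a mean of at least 100 reads, 73 (2.49%) were apart, 40 higher and 33 lower. Few of the differences were both large and well counted: 101 genes were apart by at least 4-fold, and 255 of the 623 had fewer than 10 reads on their lower side.

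**Figure D1:**
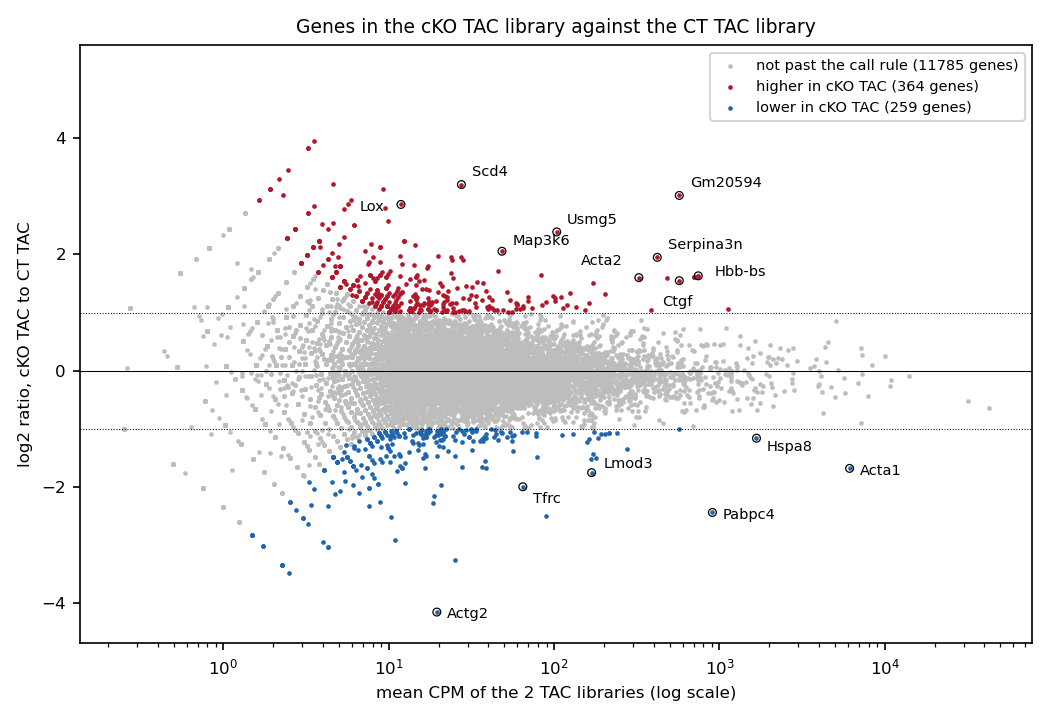
Log2 ratio of cKO TAC to CT TAC (y axis) against the mean CPM of these 2 libraries (x axis, log scale) for 12408 genes, each a point, with dotted lines at 2-fold. The 364 genes apart on the high side are red and the 259 on the low side are blue. Most of the strongest ratios lie at low CPM, and Acta1, Pabpc4, Serpina3n, Gm20594 and Ctgf stand out among the highly expressed genes.

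The targeted gene, Sav1 (chromosome 12, 69965012 to 69987002, minus strand, mm10), did not lie lower in cKO TAC than in CT TAC. Its level was 49.3 CPM in CT baseline and 35.4 in CT TAC, and 39.8 and 46.2 CPM in the libraries labelled cKO baseline and cKO TAC. The TAC ratio was 1.30 with an interval of 0.941 to 1.81, and the log2 ratio was 0.38, against -0.31 in the baseline pair. The value covers the whole gene, the labels do not give which exons are deleted, and Sav1 overlaps Atl1 on the other strand, so this level does not check the deletion. Directions below are therefore those of the library labelled cKO TAC. Of 32 listed Hippo components 30 were measured. Amotl2, an angiomotin-like protein that binds YAP at junctions, and Vgll3, a TEAD cofactor, lay higher, with log2 ratios of 1.36 and 1.20. Mob1b, an activator of the LATS kinases, lay lower at -1.04. Vgll3 was past the rule on 8 reads in CT TAC and 18 in cKO TAC, and it was no longer 2-fold apart when 5 reads were added before the logarithm. Mob1b was lost in that setting and under total-read scaling. The kinases and their effectors did not pass: log2 ratios were 0.21 for Stk3, 0.03 for Stk4, 0.25 for Lats1, 0.21 for Lats2, -0.50 for Yap1, 0.16 for Wwtr1, which encodes TAZ, and -0.53 for Tead1. The median of the list was 0.13.

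Of the 22 listed targets of YAP and TEAD, 20 were measured. Of these, 3 lay higher and none lay lower, against 2.93% and 2.09% of all genes. The median log2 ratio was 0.25 and 14 of 20 lay above 0, and the baseline pair had the same median, 0.25, with 5 of 20 higher. Ctgf, a secreted matricellular protein and a classic YAP target, stood at 81.2 CPM in CT baseline and 291 in CT TAC, against 354 in cKO baseline and 852 in cKO TAC. It was highest in cKO TAC, and CT TAC and cKO baseline lay near each other between the extremes. Its TAC ratio was 2.93 (interval 2.66 to 3.23). Amotl2 showed another pattern, with 88.6, 28.95, 89.9 and 75.05 CPM in the same order, so that CT TAC alone was low. Its ratio was 2.59, with an interval of 1.89 to 3.59. Nt5e, the ecto-enzyme CD73 that makes adenosine, stood at 12.98 CPM in CT TAC and 29.9 in cKO TAC (log2 ratio 1.17). Ankrd1, a stress-responsive ankyrin repeat protein of the sarcomere, was nearly level after TAC, at 8081 CPM in CT TAC and 8624 in cKO TAC (log2 ratio 0.09), although it was 827 CPM in CT baseline and 9962 in cKO baseline. Cyr61, another secreted target, was also nearly level at 118 and 126 CPM.

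Promoters were searched for the core TEAD motif GGAATG, on both strands (CATTCC on the other), in the 250 bases before the start of 9901 genes with a RefSeq promoter. It was found in 13.1% of all of them, in 14.9% (43 of 288) of genes that lay higher and in 12.4% (26 of 210) of genes that lay lower. The E-box CACGTG was in 9.85% of all, 9.72% (28) of the higher and 7.14% (15) of the lower genes. The upstream sequences of 5 genes with a TEAD match are shown because they span the differences between the TAC libraries. Cldn15 and Aqp8 are the highest and lowest named genes with a match, Hmgb1 being level with Cldn15, and Amotl2, Acta2 and Acta1 were chosen after their values were seen. They are written 5′ to 3′ on the gene's strand (RefSeq, GRCm38.p6), with the motif in capitals.
Cldn15 (chr5:136967619-136967868, plus strand): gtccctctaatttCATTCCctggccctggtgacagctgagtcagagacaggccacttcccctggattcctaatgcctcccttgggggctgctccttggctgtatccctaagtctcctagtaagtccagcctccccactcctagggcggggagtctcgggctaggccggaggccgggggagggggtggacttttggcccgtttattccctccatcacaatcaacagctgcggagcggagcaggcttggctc
Amotl2 (chr9:102717554-102717803, plus strand): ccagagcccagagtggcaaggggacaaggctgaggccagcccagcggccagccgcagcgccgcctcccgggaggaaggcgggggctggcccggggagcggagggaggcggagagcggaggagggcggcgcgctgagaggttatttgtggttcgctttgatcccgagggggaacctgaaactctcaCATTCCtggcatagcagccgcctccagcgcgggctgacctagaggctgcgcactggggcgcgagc
Acta2 (chr19:34255374-34255623, minus strand): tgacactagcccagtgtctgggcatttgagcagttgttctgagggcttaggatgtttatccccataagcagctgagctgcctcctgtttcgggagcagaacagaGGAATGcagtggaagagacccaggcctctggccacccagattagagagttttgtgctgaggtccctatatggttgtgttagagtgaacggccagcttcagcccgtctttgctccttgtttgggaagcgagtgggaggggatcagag
Acta1 (chr8:123894776-123895025, minus strand): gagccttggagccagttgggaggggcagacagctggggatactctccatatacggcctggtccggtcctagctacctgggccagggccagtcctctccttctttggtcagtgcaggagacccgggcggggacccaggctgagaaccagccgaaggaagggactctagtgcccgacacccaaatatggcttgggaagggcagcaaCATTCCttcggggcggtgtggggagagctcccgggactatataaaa
Aqp8 (chr7:123462044-123462293, plus strand): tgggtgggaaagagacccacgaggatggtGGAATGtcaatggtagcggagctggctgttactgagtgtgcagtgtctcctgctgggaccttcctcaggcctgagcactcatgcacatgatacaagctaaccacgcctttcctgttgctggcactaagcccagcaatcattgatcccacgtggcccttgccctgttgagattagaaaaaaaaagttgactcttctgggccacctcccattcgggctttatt
The match lies 46 bases before the start in Acta1, 65 in Amotl2, 146 in Acta2, 221 in Aqp8 and 237 in Cldn15. Genes with a match thus lay on both sides, and a match describes the letters only.

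The actins split between the libraries. Acta1, the skeletal alpha-actin of the fetal and stressed heart (chromosome 8, 123891769 to 123894751), stood at 661 CPM in CT baseline and 9347 in CT TAC, against 1976 in cKO baseline and 2906 in cKO TAC. CT TAC was far above the other 3 libraries, and Acta1 was 3.22 times lower in cKO TAC than there (log2 ratio -1.69, interval of the ratio 0.3015 to 0.3205). At baseline it lay the other way, higher in cKO with a log2 ratio of 1.58. Acta2, the smooth muscle alpha-actin, was at 202, 161, 594 and 490 CPM, so that both cKO libraries were above both CT libraries. Its TAC ratio was 3.04 (interval 2.67 to 3.46). Actg2, the gamma-actin of visceral smooth muscle, went the opposite way, with 86 and 75 reads in CT baseline and CT TAC against 10 and 3 in cKO baseline and cKO TAC (log2 ratios -2.29 and -4.16). Of the remaining actins, Actc1, the cardiac alpha-actin, had a log2 ratio of -0.52, Actb -0.23 and Actg1 0.29, none past the rule. This list of 6 actins was drawn up after its values were seen.

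The smooth muscle markers Myh11, Tagln and Cnn1 were not past the rule. Myh11 had a log2 ratio of -0.11, Tagln -0.07 and Cnn1 -0.03, and Acta2 was the only one of 10 mural markers past the rule. The summed mural level was 848 CPM in CT TAC and 1182 in cKO TAC, with Acta2 in both sums. Krt18, a simple-epithelial keratin, was, with Acta2, 1 of the 2 among 13 measured dedifferentiation genes that lay higher: it had 6, 22, 14 and 57 reads in CT baseline, CT TAC, cKO baseline and cKO TAC (log2 ratio 1.46). The others lay between -0.32 (Nes, nestin) and 0.29 (Actg1), and Runx1 was at -0.00.

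Of 14 stress and fetal genes 13 were measured, of which 2 lay lower and 1 higher, against 2.09% and 2.93% of all genes. Besides Acta1, Nmrk2, a nicotinamide riboside kinase of muscle, lay lower, with 35 reads in CT TAC and 14 in cKO TAC (log2 ratio -1.15). Gdf15, a secreted stress cytokine, lay higher at 25 and 48 reads (1.04). Nmrk2 and Gdf15 were no longer apart when 5 reads were added. Nppa, which encodes atrial natriuretic peptide, was at 129 CPM in CT baseline and 3594 in CT TAC, against 2035 in cKO baseline and 6487 in cKO TAC, and its TAC log2 ratio of 0.85 was short of 2-fold although the interval of the ratio, 1.75 to 1.86, was narrow. Nppb, the B-type natriuretic peptide, was at 1066 and 1602 CPM (0.59) and Myh7, the beta-myosin heavy chain, at 6611 and 8004 CPM (0.28). Xirp2, an actin-binding protein of the intercalated disc, lay on the other side of 0 at 5292 and 3204 CPM (-0.72). The peptides and Acta1, all textbook markers of pressure overload, thus had ratios on opposite sides of 0 between these 2 hearts. The baseline pair had 6 of the 13 genes higher and none lower.

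No gene was past the rule in the lists of adult sarcomere, calcium-handling, and channel and connexin genes, which do not hold Acta1. Over all genes 5.02% were, and 2.49% of those with a mean of at least 100 reads. A count of 0 in lists this short does not set them apart from other genes. None of 23 adult sarcomere genes, 13 calcium-handling genes or 23 channel and connexin genes passed the rule, with medians of 0.05, -0.09 and -0.05; these medians changed sign under another scaling or read filter. Tnnc1, cardiac troponin C, had the lowest sarcomere ratio, at 9372 CPM in CT TAC and 4995 in cKO TAC (-0.91, interval of the ratio 0.520 to 0.546, which excludes 1), followed by Myh6, the adult alpha-myosin heavy chain (-0.64). Tnnt2, cardiac troponin T, had the highest, 0.49. Hcn2, a pacemaker channel, had the lowest ratio of the channel genes, on 92 and 43 reads (-0.96, interval of the ratio 0.346 to 0.739). Among calcium genes Hrc, a calcium-binding protein of the sarcoplasmic reticulum, was at -0.70 and Pln, the inhibitor of the calcium pump, at 0.45. Lmod3, leiomodin 3, which nucleates actin filaments in striated muscle and stood outside the lists, lay lower: it was at 92.7 CPM in CT baseline and 261 in CT TAC, against 210 in cKO baseline and 76.7 in cKO TAC. CT TAC and cKO baseline were the high libraries, and the TAC ratio was -1.76 on the log2 scale. Hand2, a transcription factor of the developing right ventricle, was the only one of 12 cardiac transcription factors apart, at 36 and 83 reads (1.31); it overlaps Hand2os1 on the other strand.

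**Figure D2:**
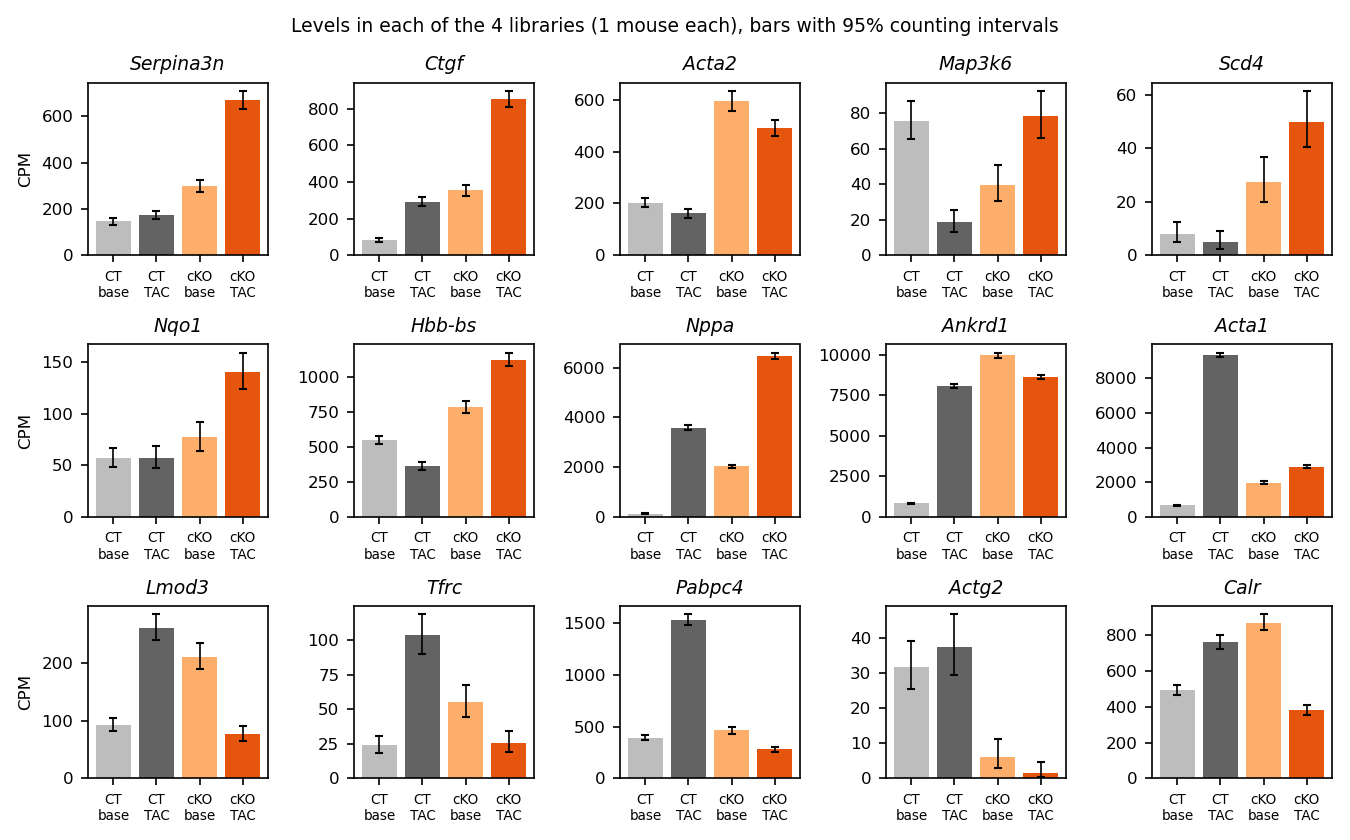
CPM (y axes, from 0) of 15 genes in the 4 libraries, 1 mouse each; error bars are 95% counting intervals of the level. Acta2 is at 490 CPM or more in both cKO libraries and Acta1 is highest in CT TAC at 9347 CPM, while Ankrd1 stands between 8081 and 9962 CPM in every library but CT baseline.

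The genes furthest above CT TAC were ranked by the interval bound nearest to 1. Gm20594, also named Mtrnr2l (chromosome 6, 79817916 to 79818364, plus strand), led them with 251 reads in CT TAC and 1871 in cKO TAC, a ratio of 8.12 (interval 7.12 to 9.30). It had 4594 reads in CT baseline and 532 in cKO baseline, so its order was reversed there. The search for near-identical copies held to 95% identity, and whether less similar sequences gave this gene reads was not tested. Scd4, a stearoyl-CoA desaturase that makes monounsaturated fatty acids, was at 8.15, 4.99, 27.5 and 50.03 CPM in CT baseline, CT TAC, cKO baseline and cKO TAC. Both cKO libraries were above both CT libraries, and the TAC ratio was 10.02 (interval 5.21 to 21.6). Serpina3n (chromosome 12, 104406729 to 104414329, plus strand), a serine protease inhibitor of the acute phase, was likewise higher in the cKO libraries than in the CT libraries, at 146, 173, 298 and 669 CPM, with a TAC ratio of 3.87 (interval 3.43 to 4.38).

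Map3k6, a kinase upstream of stress-activated MAP kinases, was lowest in CT TAC, at 75.6, 18.5, 39.8 and 78.3 CPM in CT baseline, CT TAC, cKO baseline and cKO TAC (log2 ratio 2.06). Usmg5, a small subunit of ATP synthase, was lowest there too, at 186, 32.9, 95.4 and 175 CPM (2.39), and it overlaps Taf5 on the other strand. Il17ra, the receptor for interleukin 17A, rested on 3 reads in CT TAC against 31 in cKO TAC, and Lgals3, the lectin galectin 3, on 4 against 31. Slc22a12, a urate transporter, Cldn15, a tight junction claudin, and Hmgb1, a chromatin protein, had 0 reads in CT TAC and 13, 12 and 12 in cKO TAC. Against a floor of 3 reads per library they were at least 4.72-fold, 4.36-fold and 4.36-fold higher, and the exact intervals of their ratios, which also hold the counting error of cKO TAC, began at 3.32, 3.03 and 3.03. Hmgb1 has 21 near-identical copies among the annotated transcripts, so its reads are uncertain.

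The genes furthest below CT TAC were led by Actg2. Atp1a4, the sodium pump subunit of sperm, was at 17, 92, 34 and 8 reads in CT baseline, CT TAC, cKO baseline and cKO TAC (log2 ratio -3.26), so CT TAC was the highest library and cKO TAC the lowest. Pabpc4, a cytoplasmic poly(A)-binding protein, was at 393, 1532, 465 and 281 CPM. Only CT TAC was raised among the 4, and the ratio to it was 5.45 times lower (interval of the ratio 0.167 to 0.202); its recovered reads were not whole numbers in CT baseline and CT TAC. Tfrc, the transferrin receptor that takes up iron, had 65, 208, 90 and 47 reads in the same order (-2.00). B3galt2, a galactosyltransferase, Ppp1r14c, an inhibitor of protein phosphatase 1, Aqp8, a water channel, and Mfap3l, a membrane protein, had log2 ratios of -2.28, -2.16, -2.52 and -2.92 on 62, 62, 36 and 39.5 reads in CT TAC. Tubb4b, a beta-tubulin, lay 2.89 times lower, at 250 and 86.5 CPM, and the ribosomal protein gene Rpl27 was at 153 and 26.6 CPM; these 2 have 2 and 7 near-identical copies.

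Among 43 extracellular matrix genes 4 lay higher and none lower, against 2.93% and 2.09% of all genes, with a median of 0.25. Lox, lysyl oxidase, which cross-links collagen and elastin, had 14, 5, 6 and 39 reads in CT baseline, CT TAC, cKO baseline and cKO TAC, so cKO TAC alone was high (log2 ratio 2.86). Eln, elastin, had 17, 43, 15 and 85 reads (1.09). Mfap5, a microfibril protein, had 34, 173, 68 and 341 reads (1.10). Timp1, an inhibitor of matrix metalloproteinases, was at 47.4 CPM in CT TAC and 100.1 in cKO TAC (1.07). The major fibrillar collagens were nearly level after TAC: Col1a1 was at 676 and 622 CPM and Col3a1 at 1224 and 1121 CPM (-0.12 and -0.13). Postn, a matricellular protein of activated fibroblasts, was at 826 and 1368 CPM (0.73). The baseline pair was different in its counts, with 22 of 43 matrix genes higher in cKO, 1 lower and a median of 1.11; the difference between the pairs was not tested. None of 10 fibroblast markers passed in the TAC pair, and their summed level was 5581 CPM in CT TAC and 6500 in cKO TAC. Of 17 TGF-beta signalling genes, the ligand Tgfb3 and the inhibitory Smad7 lay higher, each at 1.12 on 19 and 18 reads in CT TAC against 39 and 37; both fell short when 5 reads were added.

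Oncostatin M is a cytokine of the interleukin 6 family that signals through the receptor subunit gp130, and its target genes include acute-phase proteins. Of 17 listed genes of this response, 15 were measured, and 6 lay higher and none lower, against 2.93% and 2.09% of all genes. Of the 15, 14 lay above 0 and the median was 0.87. Lcn2, lipocalin 2, which binds bacterial siderophores and is an acute-phase protein, had 38, 19, 80 and 70 reads in CT baseline, CT TAC, cKO baseline and cKO TAC (log2 ratio 1.95). Like Serpina3n (1.95) it was highest in the 2 cKO libraries. Il6ra, the interleukin 6 receptor, had 4 reads in CT TAC and 15 in cKO TAC (1.80), and the oncostatin M receptor Osmr was at 34.9 and 70.7 CPM (1.01). Osmr was just past the 2-fold limit and fell short when 5 reads were added. The metal-binding Mt2 had 17 and 39 reads (1.27). Timp1, also counted among the matrix genes, lay higher too (1.07). The shared receptor Il6st was at 0.17 and its transcription factor Stat3 at 0.13, both short of the rule. Bcl3 was the 1 gene below 0, at 9 and 2 reads.

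Of 26 cytokines and chemokines 17 were measured, and Ccl6, a chemokine of myeloid cells, and Spp1, osteopontin, lay higher (1.61 and 1.07), while none lay lower. The median was 0.53, against 1.41 in the baseline pair, and 0.29 in the TAC pair when 5 reads were added. Ccl6 rested on 9 and 27 reads in CT TAC and cKO TAC. Spp1 rested on 13 and 26 reads and fell short when 5 reads were added. Of 19 macrophage markers 3 lay higher, against 2.93% of all genes, and 14 lay above 0. Their median was 0.35, inside the quartiles of all genes (-0.33 and 0.37). Their summed level was 779 CPM in CT TAC and 1071 in cKO TAC, against 552 and 1183 in CT and cKO baseline. Trem2, a lipid-sensing receptor, Cd163, the haemoglobin scavenger receptor, and Lyve1, a hyaluronan receptor of resident macrophages, were the 3, at 1.64, 1.16 and 1.05. Trem2 rested on 7 and 22 reads in CT TAC and cKO TAC. Lyve1 fell short when 5 reads were added, and the recovered reads of Cd163 were not whole numbers in the TAC libraries. Broader macrophage markers were short of the rule, with C1qa at 0.48, Lyz2 at 0.65 and Cd68 at 0.82. Neutrophil markers summed to 11.5 and 14.4 CPM and the 2 lymphocyte markers measured to 3.49 and 4.35 CPM. In RNA of heart tissue, more cells of a type and more RNA per cell cannot be told apart, and the part of macrophages in the genes above was not tested. None of 27 interferon-response or 8 antigen-presentation genes passed.

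Red cell transcripts differed between the hearts. Of 9 erythroid markers 6 were measured. Hbb-b1 and Hbb-b2 carry the same values as Hbb-bs and Hbb-bt, which leaves 4 distinct measurements, and 3 of these lay higher in cKO TAC. Hbb-bs, adult beta-globin, was at 550, 363, 783 and 1126 CPM in CT baseline, CT TAC, cKO baseline and cKO TAC (log2 ratio 1.63), and Hbb-bt had nearly the same levels (1.60). Hbb-bs and Hbb-bt are themselves closely similar genes, between which reads can be split, so they are not independent of each other. Alas2, the haem-synthesis enzyme of red cell precursors, was at 25.7 and 54.4 CPM (1.07). Slc4a1, the red cell anion exchanger, had 0 reads in CT TAC and 3 in cKO TAC. With each measurement counted once, the summed level was 737 CPM in CT TAC and 2242 in cKO TAC. How much blood the 2 hearts held, and its part in any other difference, was not tested.

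Antioxidant genes driven by the transcription factor Nrf2 lay on the high side after TAC. Of 15 listed, 14 were measured, and 4 lay higher and none lower, against 2.93% and 2.09% of all genes. The median was 0.59. In the baseline pair none lay higher, 1 lay lower and the median was -0.16. Nqo1, a quinone reductase, was highest in cKO TAC, at 56.7, 57.4, 77.1 and 140.9 CPM in CT baseline, CT TAC, cKO baseline and cKO TAC (log2 ratio 1.29, interval of the ratio 1.96 to 3.08). Gclm, a subunit of the enzyme that limits glutathione synthesis, was also highest in cKO TAC, at 48.6, 39.9, 41.0 and 83.8 CPM (1.06). Hmox1, haem oxygenase 1, had 13 and 32 reads in the TAC libraries (1.36), and G6pdx, the NADPH-producing first enzyme of the pentose phosphate pathway, 12 and 31 (1.42). Since the use of strand in counting is not given, reads of genes that overlap on opposite strands cannot be told apart: here Gclm overlaps Gm17494 and G6pdx overlaps Ikbkg, and among other genes named as apart this holds for Hmgb1, Nmrk2, Slc22a12, B3galt2, Ppp1r14c, Tubb4b, Lox, Eln, Tgfb3, Il6ra, Mt2, Alas2, Dnaja1, Atp5l, Mrpl18, Mrps27, Rps27a, Arntl, Dbp and Cdc20, and among genes named as not apart for Myh6, Pln, Myh7, Nppa, Xirp2, Runx1 and Tagln, among others.

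Chaperones of the endoplasmic reticulum lay on the low side. Of 21 measured genes of this list 2 lay lower and none higher, against 2.09% and 2.93% of all genes. Of the 21, 6 lay above 0 and the median was -0.31. The baseline pair had 8 higher, none lower and a median of 0.82. Pdia4, a protein disulfide isomerase, was at 74.9, 107, 233 and 48.4 CPM in CT baseline, CT TAC, cKO baseline and cKO TAC (log2 ratio -1.13), and Calr, the calcium-binding chaperone calreticulin, at 494, 762, 872 and 380 CPM (interval of the ratio 0.456 to 0.546). Both had cKO baseline as the highest library and cKO TAC as the lowest. Calr sat at the 2-fold limit and was lost under total-read scaling and with 5 reads added. Hspa5, the chaperone BiP, had the same highest and lowest libraries, at 1083, 968, 1963 and 641 CPM, short of the rule (-0.59).

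The integrated stress response is the programme set off by phosphorylation of eIF2-alpha. Against 2.93% of all genes higher and 2.09% lower, 3 of its 25 genes lay higher and none lower (median 0.20). Besides Gdf15 these were Asns, asparagine synthetase, on 6 and 24 reads (1.96) and Chac1, which degrades glutathione, on 4 and 14 reads (1.70). Of 18 heat shock proteins 1 lay on each side of 2-fold: Hspa8, the constitutive cytosolic Hsc70, was at 931, 2317, 1089 and 1033 CPM in CT baseline, CT TAC, cKO baseline and cKO TAC (log2 ratio -1.17), with CT TAC alone high. Its cochaperone Dnaja1 had 39 and 88 reads in the TAC libraries (1.28). These 2 genes have 6 and 3 near-identical copies. No proteasome subunit of 38 passed, nor did any of 4 muscle ubiquitin ligases.

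Most metabolic genes differed little. Of 33 fatty acid oxidation genes 1 lay higher, none lower, 8 lay above 0 and the median was -0.12, or -0.02 with total-read scaling, and Angptl4, a secreted inhibitor of lipoprotein lipase, was not past the rule, on 9 and 17 reads (0.97, interval of the ratio 0.868 to 5.24). Pdk4, the kinase that shuts pyruvate dehydrogenase in fasting, was at 482, 117, 120 and 290 CPM in CT baseline, CT TAC, cKO baseline and cKO TAC. CT TAC and cKO baseline were both low, so the genotype ratio was 1.31 after TAC and -2.00 at baseline on the log2 scale. Klf15, a Kruppel-like regulator of amino acid and lipid use, was the 1 of 14 metabolic regulators that passed, at 43.7, 7.49, 31.2 and 21.8 CPM (1.48), and the list's median was -0.30. None of 21 TCA cycle genes, 20 glycolytic genes or 14 genes of branched-chain amino acid breakdown passed; 4, 6 and 3 of them lay above 0, against 50.5% of all genes, and the medians were -0.26, -0.26 and -0.21, or -0.17, -0.17 and -0.11 with total-read scaling. Pdhb, of the pyruvate dehydrogenase complex, and Cs, citrate synthase, had the lowest TCA ratios (-0.68 and -0.54).

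No subunit of respiratory complex I among 36 was apart. Against 2.93% of all genes, 3 of 44 listed genes of complexes III, IV and V lay higher, in a list that does not hold Usmg5. They were Cox6a1, the non-muscle isoform of a cytochrome oxidase subunit, at 26 and 59 reads (1.27), and the ATP synthase subunits Atp5l (1.17) and Atp5h (1.05), which have 9 and 4 near-identical copies. Of 77 mitochondrial ribosomal proteins 3 lay lower and none higher, against 2.09% and 2.93% of all genes, 25 lay above 0, and the median was -0.18, or -0.09 with total-read scaling. Mrpl18 was at 223 and 95.2 CPM (-1.23), Mrps27 at 177 and 82.1 CPM (-1.10) and Mrpl50 at 60.9 and 28.3 CPM (-1.09), the last lost under total-read scaling. Cytosolic ribosomal proteins had 5 of 78 higher and 2 lower around a median of 0.04. Rpl27 lay lower, as given above, and so did Rpl36 (-1.66). Rpl29 lay higher on 2 and 10 reads in CT TAC and cKO TAC (1.99), and Rps27a on 42 and 129 (1.72). Rps24, Rpsa and Rpl7a lay higher too (1.60, 1.04 and 1.04). All but Rpl7a among these 7 have near-identical copies, between which reads can be split. Over all genes, 5.72% of the 874 with such a copy were apart, against 4.96% of the 11194 without.

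**Figure D3:**
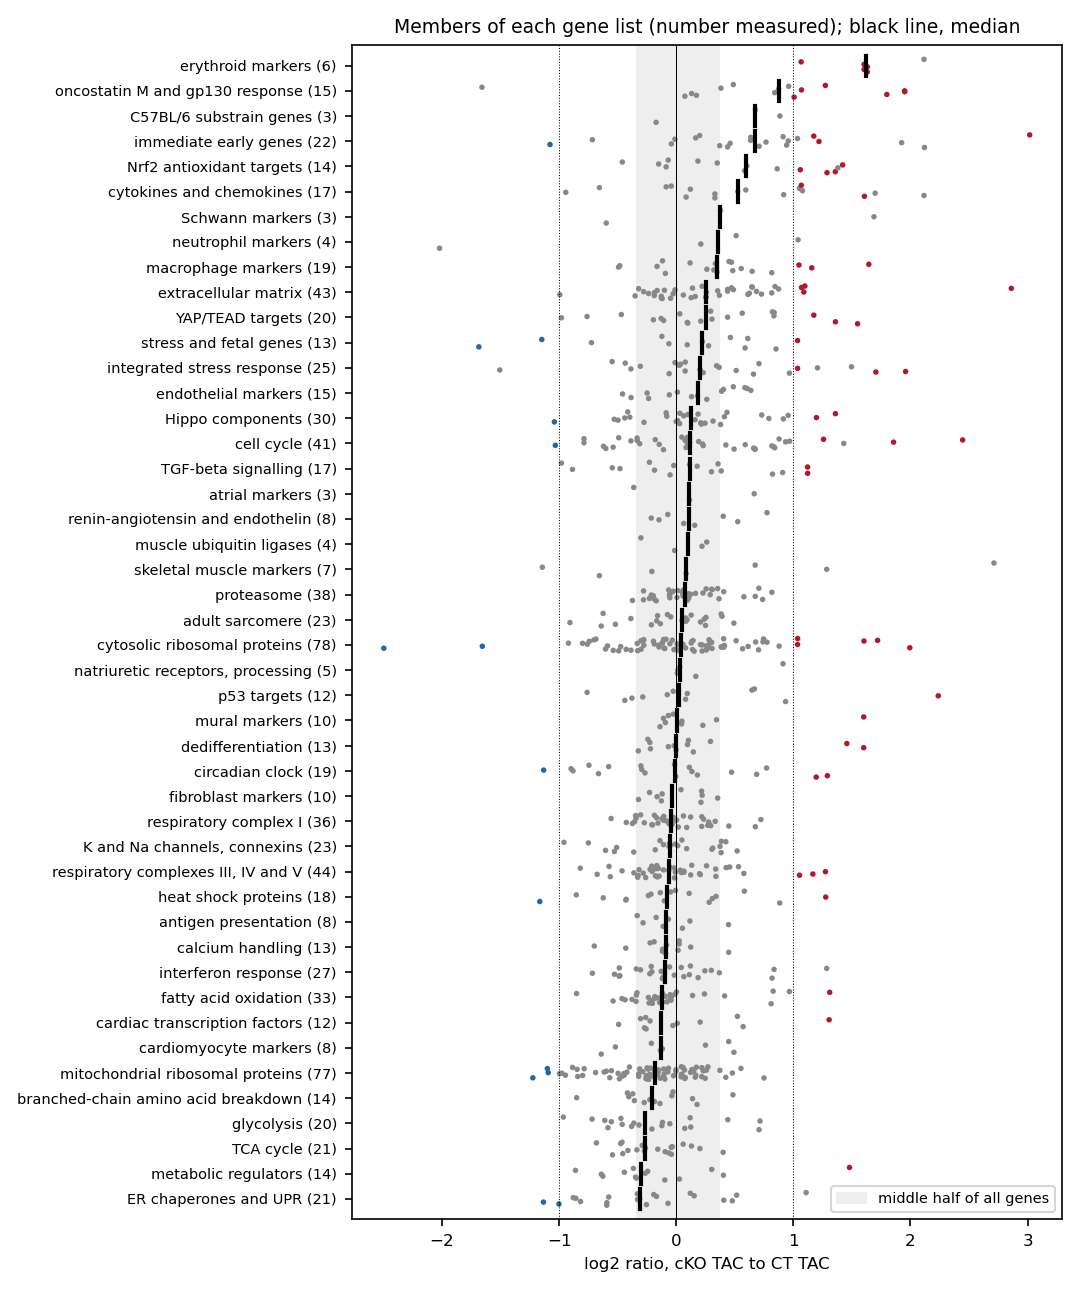
Log2 ratio of cKO TAC to CT TAC (x axis) for the measured members of 46 gene lists (y axis, number measured in parentheses), one point a gene, red or blue where past the rule; black lines are medians and the grey band runs between the quartiles of all genes (-0.33 and 0.37). The medians of most lists lie inside the band, and those of erythroid markers (1.62, from 6 entries that are 4 distinct measurements), the oncostatin M response (0.87), immediate early genes (0.67), Nrf2 targets (0.59) and cytokines (0.53, or 0.29 with 5 reads added) are among those above it.

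Immediate early genes, transcription factors and regulators that respond within minutes to a stimulus, lay on the high side, with 18 of 22 above 0 and a median of 0.67, against -0.10 in the baseline pair. Of them 3 lay higher and 1 lower, against 2.93% and 2.09% of all genes, of which 50.5% lay above 0. Klf4, a Kruppel-like factor, was at 122, 54.9, 65.4 and 125 CPM in CT baseline, CT TAC, cKO baseline and cKO TAC (log2 ratio 1.17), and Ier3 had 50 and 108 reads in the TAC libraries (1.22). Maff, a small Maf factor, had a fraction of a read in CT TAC and 8.2 reads in cKO TAC. Egr1 lay lower at 54 and 23 reads (-1.08), a call lost under total-read scaling and with 5 reads added. Of 19 clock genes 2 lay higher and 1 lower, against the same shares of all genes. Npas2, a paralogue that can take the place of CLOCK, lay higher on 11 and 26 reads in the TAC libraries (1.29). Arntl, the partner of CLOCK, lay higher too (1.20), and Dbp, an output gene that peaks in the opposite phase, lay lower (-1.13). Arntl had 157, 23, 57 and 49.5 reads and Dbp 26, 154, 29 and 64, so CT TAC was the lowest library for Arntl and the highest for Dbp. The labels give no time of day of tissue collection.

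The cell cycle genes that were apart rested on few reads. Of 44 listed, 41 were measured, 3 lay higher and 1 lower, against 2.93% and 2.09% of all genes. The median was 0.11, or 0.20 with total-read scaling, against 0.32 at baseline. Rrm2, a subunit of ribonucleotide reductase with 1 near-identical copy, had 2 reads in CT TAC and 14 in cKO TAC, Cdc20, an activator of the anaphase-promoting complex, 2 and 9, and Anln, the cytokinesis protein anillin, 9 and 21. Mcm4, of the replicative helicase, had 30 and 13. Anln and Mcm4 were not apart when 5 reads were added, nor Mcm4 under total-read scaling. The summed level of the 41 genes was 522 CPM in CT TAC and 576 in cKO TAC. Of 12 measured p53 targets Phlda3 lay higher, on 2 and 12 reads.

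Marker lists of the main cell types of the heart were short, and 5.02% of all genes were apart, so a count of 0 in such a list does not show an equal cell make-up. None of the 8 cardiomyocyte, 15 endothelial or 10 fibroblast markers was apart, with medians of -0.13, 0.18 and -0.04; total-read scaling moved the first to -0.03 and the second to 0.28 and changed the sign of the last. Cardiomyocyte markers summed to 119142 CPM in CT TAC and 91349 in cKO TAC, of which Myh6 made 51827 and 33239 CPM, and endothelial markers to 2210 and 2248 CPM. Of 8 adipocyte markers only Cfd and Cidea were measured, and Cfd, adipsin, had 1, 6, 7 and 0 reads in CT baseline, CT TAC, cKO baseline and cKO TAC. Atrial, Schwann and skeletal muscle markers summed to at most 23.7 CPM each in the TAC libraries. None of 3 measured genes on the list for C57BL/6 substrains was past the rule. Nnt, a mitochondrial transhydrogenase, was at 455 and 404 CPM, and Wdfy1 rested on 2.5 and 5 reads (0.89). Ide, the insulin-degrading enzyme, had 222 and 326 reads (0.68), and the interval of its ratio, 1.34 to 1.91, excludes 1.

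The baseline pair used other mice, so libraries labelled cKO and CT were compared in 2 pairs that share no mouse. Within each pair, a difference between individual mice cannot be told apart from a difference of genotype. In the baseline pair 629 genes (5.07%) were apart, 405 (3.26%) higher and 224 (1.81%) lower in cKO. In the same direction 51 genes were apart in both pairs, which is 8.19% of the TAC calls and 8.11% of the baseline calls, 38 of them higher and 13 lower. In opposite directions there were 34, or 5.46% and 5.41%. Genes higher in both included Ctgf, Acta2, Serpina3n, Lcn2, Scd4, Timp1, Mfap5, Lgals3, Gdf15 and Krt18, and Actg2 was lower in both. Those in opposite directions included Acta1, Lmod3, Tfrc and Nmrk2, lower in cKO after TAC and higher at baseline, and Pdk4 and Gm20594, which were the other way round. Across all 12408 genes the ratios of the 2 pairs had a Pearson r of 0.08 and a Spearman rho of 0.09, as a description of 4 libraries. Lrrc52, which was named after its values were seen, lay furthest out among the opposite genes, at 264, 5, 4 and 32 reads in CT baseline, CT TAC, cKO baseline and cKO TAC.

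**Figure D4:**
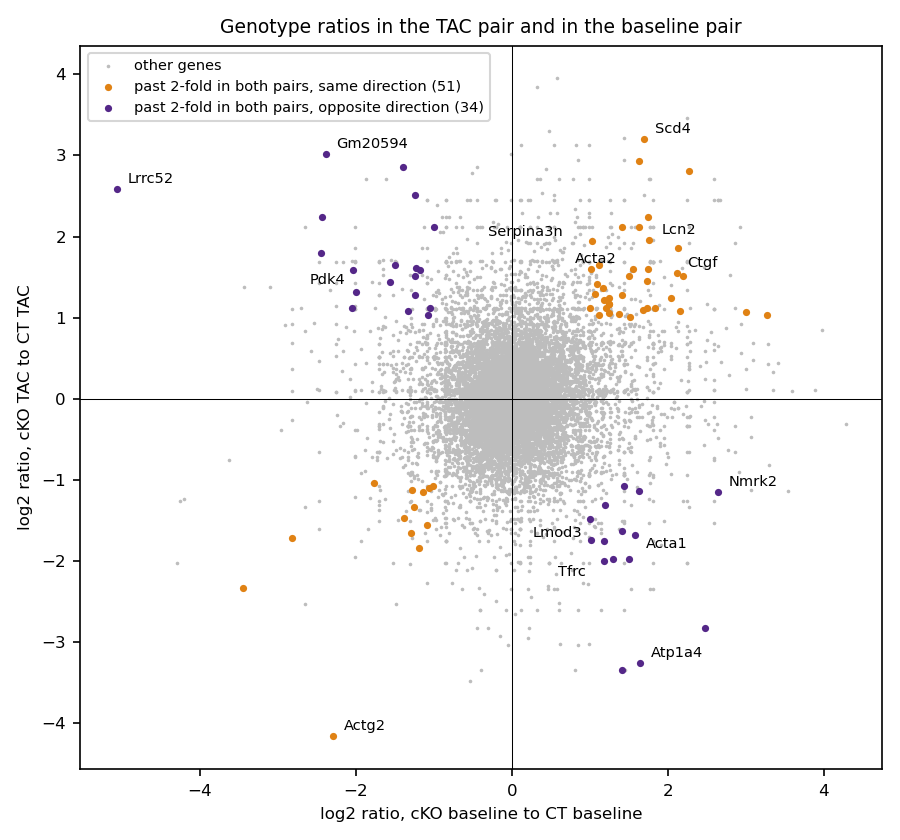
Log2 ratio of cKO TAC to CT TAC (y axis) against that of cKO baseline to CT baseline (x axis) for 12408 genes. The 51 genes apart in the same direction in both pairs (orange) lie in the upper right and lower left, and the 34 in opposite directions (purple) in the upper left and lower right, with Acta1 at 1.58 on the x axis and -1.69 on the y axis.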

How the data were processed

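Mouse heart tissue was profiled by RNA-seq, 1 library per mouse and 1 mouse per group, grouped by genotype and surgery as labelled. The deposited values are log2 CPM for 12408 genes. As read from the values, about 1 read scaled by library size was added before the logarithm. Per the submitters' processing notes, CASAVA, HISAT2, edgeR and the mm10 build were used, without versions or roles; no source used here gives the counter, the annotation, the use of strand or the gene filter.

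Reads were recovered from the step of the value grid in each library, and 88.6% to 89.0% of genes came out whole within 0.01 read. The log2 ratio is the difference of deposited values and shrinks for weakly expressed genes through the read added. Ratios without it and their exact 95% Clopper-Pearson intervals come from the reads. A gene was counted as apart at 2-fold or more with an interval excluding 1. The fold bound printed for a gene with 0 reads in a library used 3 reads for that library and played no part in this rule. No p-value was computed, since there is 1 library per group. The recovery and the intervals were tested on simulated data.

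Named genes are the 12 highest and 12 lowest by the interval bound nearest to 1, Sav1, and in each of 49 gene lists up to 4 members past the rule with the largest ratio, or the 2 with the largest ratio where fewer than 2 passed. The lists match exact symbols, and 1 gene is not reported here. Members and lists were chosen with earlier results of these data known, and 2 lists (actins and glucocorticoid-induced genes) were added after the values were seen. Lists are described by counts and medians, beside those of all genes. Near-identical copies are other genes whose GENCODE M21 transcripts align over at least 200 bases and 50% of the length at 95% identity (minimap2 2.31); 12068 genes matched by symbol. Promoters are from RefSeq (GRCm38.p6), 9522 matched by symbol and 379 by an older symbol. Alternatives were scaling to total reads, median-of-ratios size factors, a mean of at least 10 reads, 5 reads added, whole reads only, 1.5-fold and 3-fold limits, and, added after seeing the data, only genes without a near-identical copy. Python 3.11.15, numpy 2.4.6, pandas 2.3.3, scipy 1.17.1 and matplotlib 3.10.9 were used.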

Additional observations from a re-analysis of the deposited data

Results flagged for a closer look

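In 10 named genes the cKO library and the CT library were past the rule in opposite directions after TAC and at baseline. With 1 mouse per group the difference between the pairs was not tested. Values are log2 ratios of cKO to CT, after TAC and then at baseline. Lower after TAC and higher at baseline were Acta1 (-1.69 and 1.58), Lmod3 (-1.76 and 1.18), Tfrc (-2.00 and 1.18), Atp1a4 (-3.26 and 1.65), Nmrk2 (-1.15 and 2.65), Pdia4 (-1.13 and 1.63), Egr1 (-1.08 and 1.44) and Cfd (-2.83 and 2.47). Cfd rested on 6 and 0 reads in CT TAC and cKO TAC, and the interval of its ratio reached 0.925, so a difference under 2-fold lies inside it. Nmrk2 rested on 1 and 8 reads in CT baseline and cKO baseline. The TAC calls of Nmrk2 and Egr1 were lost with 5 reads added, and that of Egr1 also under total-read scaling. Higher after TAC and lower at baseline were Gm20594 (3.02 and -2.39) and Pdk4 (1.31 and -2.00). Among muscle genes the group holds an actin, an actin nucleator and a nicotinamide riboside kinase, and among metabolic genes the pyruvate dehydrogenase kinase.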

How the results depend on the processing

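No paired analysis was possible because the TAC pair holds 1 library a side and the labels give no replicate numbers; a model over both pairs was not fitted. Against 623 genes apart, 364 higher and 259 lower, a 1.5-fold limit gave 1501, 753 and 748 and a 3-fold limit 213, 140 and 73. Genes apart in both pairs, 51 in the same and 34 in opposite directions, numbered 178 and 118 at 1.5-fold, 11 and 7 at 3-fold, and 31 and 22 with 5 reads added. The counts stayed within 1.5 times under the other alternatives run: 666 with total-read scaling (480 higher, 186 lower), 509 with a mean of at least 10 reads, 465 with 5 reads added, 558 with whole reads only and 555 without near-identical copies. Of 84 named genes past the rule, total-read scaling lost 5 and adding 5 reads lost 12, and no ratio changed direction past the rule. Osmr, lost with 5 reads added, and Nfkbia, lost under total-read scaling, are not among these 84. Medians of 9 lists changed sign under total-read scaling, which moved the median of all genes by 0.09 on the log2 scale, 3 with a mean of at least 10 reads and 5 with whole reads only. The scaling also moved the medians of stress and fetal genes to 0.32, of sarcomere genes to 0.15 and of cardiomyocyte markers to -0.03. Depth limits the low genes: 3 reads are 1.497 CPM in CT TAC and 1.63 CPM in cKO TAC.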

Other observations

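Genes known to be induced by glucocorticoids, a list drawn up after the values were seen, lay mostly above 0 in the TAC pair. Of 18 measured, 6 lay higher in the library labelled cKO TAC and 1 lay lower, against 2.93% and 2.09% of all genes. Of the 18, 13 lay above 0 and the median log2 ratio was 0.68. Fkbp5, a cochaperone of the glucocorticoid receptor, was at 49.7 CPM in CT baseline and 16.97 in CT TAC, against 33.6 in cKO baseline and 46.8 in cKO TAC, so that CT TAC was the lowest library (log2 ratio 1.44). The other 5 that lay higher, Map3k6, Klf15, Pdk4, Lcn2 and Mt2, had CT TAC as their lowest library too. Genes chosen after their values were seen can share such a pattern through the choice, so it is a description only. Nfkbia, the inhibitor of NF-kappa-B, lay lower, at 290 and 138 CPM (-1.07), a call lost under total-read scaling. The classic responders Tsc22d3 (0.43), Per1 (0.18) and Sgk1 (-0.64) were short of the rule. In the baseline pair the same list had 1 higher, 5 lower and a median of -0.77.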
